A study of Mus musculus with 2 samples.

Results

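Among 4931 B cells sequenced from neonatal and adult mouse hearts, 351 held transcripts of Cr2 and none of Fcer2a. Cr2 (chr1:195136811-195176716, minus strand, GRCm38) encodes CD21, the complement receptor of B cells, and Fcer2a (chr8:3681737-3694175, minus strand) encodes CD23, the low-affinity receptor for IgE. A cell was counted as Cr2+Fcer2a- when its droplet held at least 2000 unique molecular identifiers (UMIs, tags that stand for single captured transcripts), at most 10% of them from mitochondrial genes, at least 1 UMI of Cd79a, at least 1 of Cr2 and 0 of Fcer2a. It also held UMIs of at most 2 of 6 genes of B1 cells (Bhlhe41, Zbtb32, Ctla4, Cd9, S100a6 and Nid1), since B1 cells also lack CD23. The members were therefore chosen by their own counts of these genes, and the levels of Cr2, Fcer2a, Cd79a and the 6 B1 genes are given below as description only.

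The 2 libraries, 1 per age, came from C57BL6/J mice. The neonatal library pooled the hearts of 6 male and female mice that were 2 weeks old (15 days in the sample title), and the adult library pooled the hearts of 6 males that were 8 weeks old. Perfused hearts of both ages were digested alike, and live B cells with doublets gated out were sorted by surface staining on the same day. With 1 library per age there is no replicate, and age, sex composition and library cannot be told apart. No test across samples was made, since the 2 ages are not replicates of each other. Values are UMI sums, counts per 1000000 UMIs (CPM) and log2 ratios, and all intervals are exact 95% intervals that cover counting error only, not the spread between mice or between cells.

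In the spleen, follicular B cells carry CD21 and CD23 with much IgD and recirculate, whereas marginal zone B cells carry much CD21 and IgM, little IgD and little or no CD23. Marginal zone cells depend on NOTCH2 signaling, carry CD1d and the sphingosine receptor S1PR3, and respond rapidly to antigens in the blood. Immature transitional B cells pass through a stage with IgM and CD24 before they acquire CD23, so absence of CD23 alone does not name a B cell subset.

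Cr2+Fcer2a- cells were a minority of the B cells at both ages. In the neonatal library they were 114 of 1900 B cells (6.00%, 95% interval 4.97 to 7.16, Clopper-Pearson), beside 204 cells with both transcripts (10.7%), 666 with Fcer2a only (35.1%) and 916 with neither (48.2%). In the adult library they were 237 of 3031 B cells (7.82%, 6.89 to 8.83), beside 1135 cells with both transcripts (37.4%), 1166 with Fcer2a only (38.5%) and 493 with neither (16.3%). Among the cells with a Cr2 UMI, 35.8% of the neonatal and 17.3% of the adult cells had no Fcer2a UMI.

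The adult share moved with sequencing depth, and the part of missed transcripts and of differences in kind between deep and shallow cells was not tested. The libraries held 26866958 and 49500780 gene UMIs. The median depth of neonatal Cr2+Fcer2a- cells was 6296 UMIs and that of neonatal cells with both transcripts 6819.5, and the adult medians were 5609 and 7838. Among adult Cr2+ cells, the share without Fcer2a was 28.0% in cells of 2000 to under 4000 UMIs and 6.89% in cells of 12000 or more. In the neonatal library it was 33.3% (3 of 9 cells) at 2000 to under 4000 UMIs, 43.1% (33.7 to 53.0%) at 4000 to under 6000 and 28.3% at 12000 or more, where 46 cells gave an interval of 16.0 to 43.5%, so the neonatal intervals overlapped. The adult share was thus lowest in the deepest cells, and above 12000 UMIs the neonatal share lay above the adult one (4.31 to 10.3%) without overlap of the intervals. After every cell was thinned to 2000 UMIs, 57 neonatal and 322 adult cells were Cr2+Fcer2a-, 53.3% and 52.4% of the Cr2+ cells that remained. Of these, 39 and 117 had been Cr2+Fcer2a- as sequenced, so most adult cells of the class at that depth were of another class as sequenced.

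**Figure D1:**
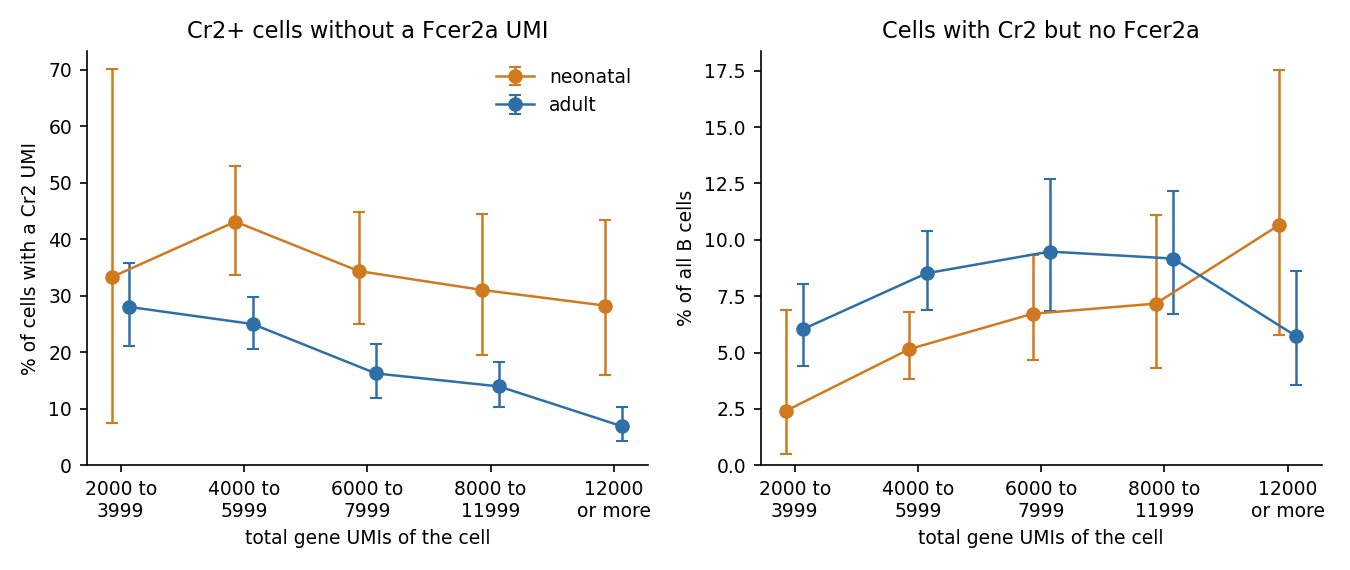
Share of cells without a Fcer2a UMI among Cr2+ cells (left, percent) and share of Cr2+Fcer2a- cells among all B cells (right, percent), by the total gene UMIs of the cell. Points are shares and bars exact binomial 95% intervals, and the adult share among Cr2+ cells was 28.0% in the shallowest and 6.89% in the deepest cells.

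Cr2 itself was detected at low counts. Of the members, 87 neonatal and 145 adult cells had a single Cr2 UMI, 22 and 47 had 2, and 5 and 45 had 3 or more. Over all cells of each class, not matched by depth, summed Cr2 was 171 CPM in neonatal members and 147 CPM in neonatal cells with both transcripts. The adult values were 250 and 227 CPM. In the depth-matched pairs described below, members and partners had 145 and 147 Cr2 UMIs in the neonatal and 395 and 414 in the adult library. RNA released into the suspension can add such UMIs: among 17 neonatal droplets rich in macrophage transcripts (median 15188 UMIs), 3 held Cr2 and 6 held Fcer2a, and of 4 such adult droplets (median 22337 UMIs) 3 held Cr2 and all 4 held Fcer2a. Cr2 was found in 318 of the 1900 neonatal B cells, a share no higher than the 17.6% in those deeper macrophage-rich droplets, so a single Cr2 UMI was not read as proof of expression. In the adult library 1372 of 3031 B cells held Cr2, likewise a share no higher than that of the 4 macrophage-rich droplets (interval 19.4 to 99.4%). Whether the macrophage-rich droplets also held a B cell was not tested. Near-empty droplets held Cr2 at 28.6 CPM in the neonatal and 109 CPM in the adult suspension. The level in the members, each chosen for a Cr2 UMI, cannot be read against these.

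Cells just inside and just outside the limits of the rule are described once. In members with UMIs of 2 B1 genes (11 neonatal and 41 adult cells) Ighd was at 152 and 391 CPM and Cd9 at 99 and 86.2 CPM. The 4 neonatal and 38 adult cells left out for having 3 B1 genes had Ighd at 388 and 241 CPM and Cd9 at 194 and 90.2 CPM, so Ighd lay higher outside the limit in the neonatal and lower in the adult library. In all, 6 neonatal and 93 adult cells with Cr2 and without Fcer2a were left out for their B1 genes. At the mitochondrial limit, 50 and 55 members lay at 8 to 10%, and 11 and 19 further cells at 10 to 12% were left out. The shallowest members had 3238 neonatal and 2201 adult UMIs, 3 adult members lay within 1000 UMIs of the limit, and 0 and 7 cells with 1000 to under 2000 UMIs were left out. The nearest cells across the Fcer2a limit, with 1 Fcer2a UMI, numbered 66 and 241 and had Ighd at 672 and 798 CPM, against 408 and 620 CPM in the members. One neonatal member had a barcode with at least 500 UMIs in the adult library too, and 0 adult members had such a barcode. Among the neonatal members, 18.4% held Xist and no Y-linked transcript, against 21.1% of neonatal cells with both transcripts, and 0 adult members did.

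To compare cells of equal depth, each Cr2+Fcer2a- cell was paired with the cell of its library that held both transcripts and was nearest in total UMIs. This gave 111 neonatal pairs (medians 6313 and 6283 UMIs) and 235 adult pairs (5624 and 5622), and 3 and 2 members found no partner within 10% of their UMIs. Members and partners had a median of 7.66% and 7.59% mitochondrial UMIs in the neonatal pairs and 6.95% and 6.94% in the adult pairs. Of 4068 neonatal and 5534 adult genes with at least 50 UMIs over the 2 classes, 9.96% and 7.21% differed by at least 1.5-fold in either direction, and the medians of all log2 ratios were 0.01 and -0.03.

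Of the markers named for marginal zone cells, Cd1d1 did not differ beyond counting error, S1pr3 had too few UMIs to compare, and Dtx1 was higher in the adult members. Cd1d1 (chr3:86995834-86999441), which encodes the lipid-presenting molecule CD1d, had 26 UMIs in neonatal members and 20 in their partners (log2 ratio 0.37, -0.53 to 1.29) and 38 against 42 in the adult (-0.14, -0.82 to 0.52). S1pr3 (chr13:51408639-51422797) was nearly absent, with 1 UMI in neonatal members against 3 and with 3 UMIs in 2 adult members against 0. Across all members, Cd1d1 was detected in 20.2% of neonatal and 13.9% of adult cells, and in 21.6% and 17.4% of all cells with both transcripts. In the macrophage-rich droplets, which were deeper and in which macrophages may transcribe the gene themselves, 4 of 17 and 3 of 4 held Cd1d1.

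Dtx1 (chr5:120680202-120711927), a target and regulator of NOTCH2 signaling in B cells, was the only one of these 3 markers with an interval above 0. It had 36 UMIs in 31 adult members and 20 UMIs in 19 adult partners (0.85, 0.02 to 1.71), and 13 against 8 UMIs in the neonatal pairs (0.69, -0.69 to 2.17). Against adult cells with Fcer2a only, paired in the same way, members and partners had 36 UMIs each. Without the limit on B1 genes the adult ratio was -0.00 (-0.52 to 0.52), and in pairs without any B1 gene Dtx1 had 11 against 10 UMIs in the adult and 6 against 0 in the neonatal library. Over all cells of each class, adult Dtx1 was at 22.5 CPM in Cr2+Fcer2a- cells, 19.1 CPM in cells with both transcripts, 18.8 CPM with Fcer2a only and 21.4 CPM with neither, levels whose intervals overlapped.

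**Figure D2:**
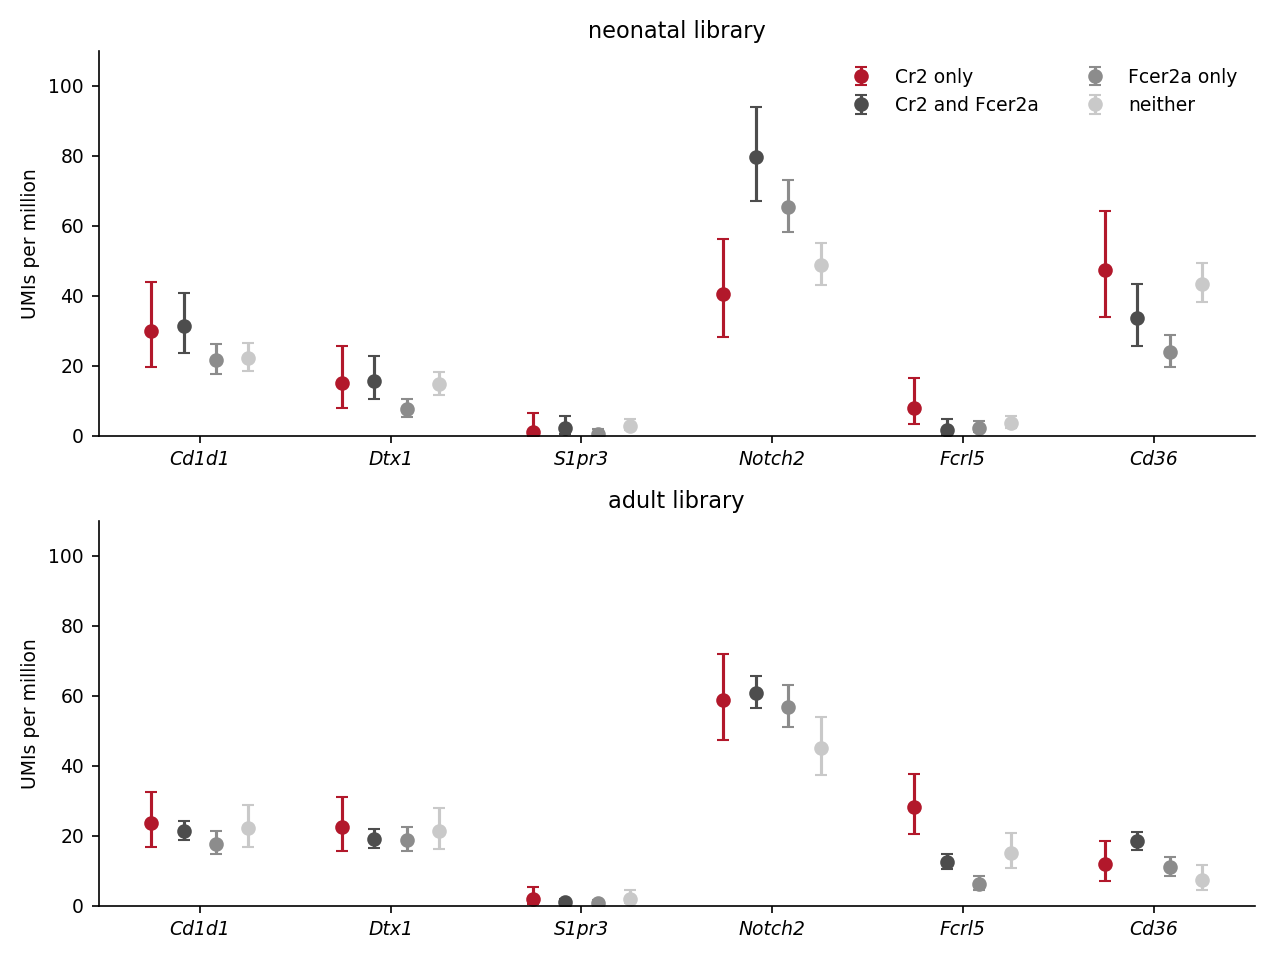
Levels of 6 genes of the marginal zone list (CPM, summed over all cells of a class) in the 4 classes of each library, with exact Poisson 95% intervals. Cd1d1, Dtx1 and S1pr3 in Cr2+Fcer2a- cells lay within the range of the other classes or overlapped it, and Fcrl5 was higher in the adult Cr2+Fcer2a- cells (28.1 CPM) than in adult cells with both transcripts (12.5 CPM).

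The remaining genes of the marginal zone list gave a mixed picture. Notch2, the receptor itself, had 34 UMIs in neonatal members and 56 in partners (-0.73, -1.39 to -0.09), but 94 and 95 in the adult pairs (-0.02, -0.44 to 0.41). Mzb1, a chaperone of immunoglobulin assembly in the endoplasmic reticulum, was slightly higher in both libraries, with 387 against 327 UMIs (0.24, 0.02 to 0.45) and 766 against 663 (0.21, 0.06 to 0.36). Fcrl5 (chr3:87435773-87500678), an inhibitory receptor found on marginal zone and B1 cells, had 45 UMIs in 29 adult members and 22 in 15 partners (1.03, 0.27 to 1.84), and 7 against 0 UMIs in the neonatal pairs. Among pairs without any B1 gene, 123 adult members held 2 Fcrl5 UMIs and their partners 0, and 72 neonatal members held 1 against 0, too few in either class to show whether a difference remained. Cd36, a scavenger receptor, had 40 UMIs in 22 neonatal members against 9 in 8 partners (2.14, 1.08 to 3.37) but 19 against 29 in the adult pairs (-0.61, -1.53 to 0.27). The size of the neonatal Cd36 ratio depended on the processing, from 0.49 to 2.19 over the 3 alternatives in which it had a value.

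Of the 13 genes of this list, 5 neonatal and 8 adult genes had at least 50 UMIs. Of these, 2 and 5 were higher in members, with medians of -0.50 and 0.13 beside 0.01 and -0.03 over all genes, where 51.3% and 43.6% of genes were higher by any amount. Summed over the list, members and partners had 781 and 721 CPM in the neonatal pairs (0.12, -0.05 to 0.28) and 781 and 700 CPM in the adult pairs (0.16, 0.04 to 0.27), sums led by Mzb1. Few cells held several of the markers at once. Exactly 2 of Cd1d1, Dtx1 and S1pr3 were detected in 4 of 111 neonatal members and 3 of 111 partners, and in 2 of 235 adult members and 2 of 235 partners. A single adult member held all 3 (1 of the 1135 adult cells with both transcripts did too). The member had 17676 UMIs, 2 B1 genes, 3 UMIs of Cr2, 1 of Cd1d1, 3 of Dtx1, 2 of S1pr3, 1 of Notch2, 6 of Cd9, 3 of Fcrl5, 29 of Ighm and 1 of Ighd. Cd1d1 did not differ beyond counting error, and S1pr3 had too few UMIs to compare. The cells are therefore called here by their 2 transcripts, and the name of marginal zone cells is not given to them.

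The transcripts of the immunoglobulin heavy chain differed in both libraries. Ighd (chr12:113406604-113416324), the constant region of IgD, had 347 UMIs in neonatal members and 597 in partners (-0.79, -0.98 to -0.60), and 985 against 1405 in the adult pairs (-0.51, -0.63 to -0.39). The difference was spread over many cells: Ighd was detected in 91 of 111 neonatal members and 106 partners, and in 215 of 235 adult members and 229 partners. The median cell had 296 CPM against 602 CPM in the neonatal and 644 against 896 CPM in the adult pairs. Ighm (chr12:113418558-113422730), the constant region of IgM, was higher, with 3468 against 2788 UMIs (0.31, 0.24 to 0.38) and 4191 against 3651 UMIs (0.20, 0.13 to 0.26). In pairs without any B1 gene the neonatal Ighm ratio was 0.35 (0.25 to 0.45) and the adult one -0.04 (-0.15 to 0.07), whereas Ighd was lower in both (-0.59 and -0.47). Ighm and Ighd are spliced from 1 primary transcript, and reads from the 3' end tell their constant regions apart.

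Members had 9.99 Ighm UMIs per Ighd UMI in the neonatal pairs, against 4.67 in partners, and 4.25 against 2.60 in the adult pairs. Cells without any Ighd UMI were 18.4% of all neonatal members and 5.88% of cells with both transcripts, and 8.44% and 2.11% in the adult. Cells with Fcer2a only were like those with both transcripts, with Ighd at 678 CPM in the neonatal and 964 CPM in the adult library. Cells with neither transcript had Ighd at 409 and 663 CPM, beside 408 and 620 CPM in the members. In pairs matched by depth within 10%, members and cells with neither transcript had 351 against 329 neonatal Ighd UMIs (0.09, -0.13 to 0.31). In the adult pairs, with median depths of 5597 and 5373 UMIs, they had 990 against 853 (0.17, 0.04 to 0.30). Near-empty droplets held Ighd at 710 and 882 CPM, above the level in the members, and the part of such free RNA in the Ighd level of each class was not tested.

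**Figure D3:**
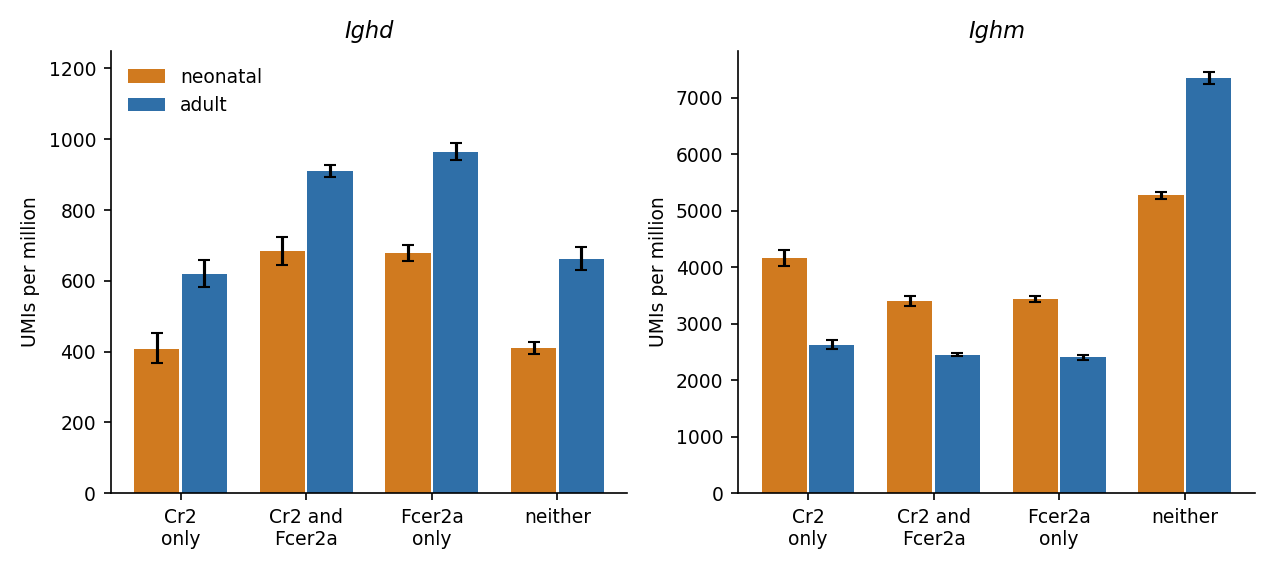
Levels of Ighd and Ighm (CPM, summed over all cells of a class) in the 4 classes, with exact Poisson 95% intervals as bars on each column. Ighd was lower in both classes without Fcer2a at both ages, and the high adult Ighm of cells with neither transcript included 5466 UMIs from a single cell.

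Light chain transcripts differed by gene and library. Igkc, the kappa constant region, had log2 ratios of 0.07 (0.03 to 0.12) and -0.10 (-0.13 to -0.07). Iglc2, a lambda constant region, was at 0.27 (0.15 to 0.39) and 0.24 (0.15 to 0.33). Iglc1 had 1490 against 903 UMIs in the adult pairs (0.72, 0.60 to 0.84), where 3 of the 235 members gave 30.5% of its UMIs, and 0.01 (-0.10 to 0.12) in the neonatal pairs. By the median cell, Iglc1 was at 965 CPM in neonatal members against 480 CPM in partners, of which 1 held 165 UMIs, and at 170 against 178 CPM in the adult pairs. Reads may be split between lambda genes where these share sequence, which was not tested. Switched isotypes were nearly absent: members had 2 neonatal and 6 adult UMIs of Igha, 0 and 7 of Ighg3, 0 and 3 of Ighg2c, and 0 of Ighg1, Ighg2b and Ighe.

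Genes of follicular B cells were mostly lower in the Cr2+Fcer2a- cells. Of 13 listed genes, Ighd among them, 12 neonatal and 13 adult genes had at least 50 UMIs, and 10 and 10 of them were lower in members, beside 48.7% and 56.4% of all genes. Their median log2 ratios were -0.13 and -0.15, and the summed level was lower in both libraries (-0.22, -0.27 to -0.16, and -0.22, -0.26 to -0.18). Satb1, a chromatin organizer of lymphocytes, had 246 against 427 UMIs (-0.80, -1.03 to -0.57) and 557 against 669 (-0.26, -0.43 to -0.10). Gpr183, the oxysterol receptor that positions B cells in the follicle, had 138 against 267 UMIs (-0.96, -1.27 to -0.66) and 411 against 480 (-0.22, -0.42 to -0.03). Ccr7, the receptor that guides cells into lymph nodes, was at -0.11 (-0.23 to 0.01) in the neonatal and -0.46 (-0.61 to -0.31) in the adult pairs. Fcmr, the receptor for IgM, had 0.04 (-0.15 to 0.24) and -0.36 (-0.50 to -0.23). Cxcr5, the follicular homing receptor, had -0.13 (-0.43 to 0.17) and -0.15 (-0.45 to 0.15), and Foxp1, a transcription factor of mature B cells, -0.03 and 0.05, so these 2 did not differ beyond counting error.

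Genes of transitional B cells were higher in sum in both libraries. Of 12 listed genes, 5 neonatal and 4 adult genes had at least 50 UMIs, and 4 and 2 were higher, beside 51.3% and 43.6% of all genes, with summed log2 ratios of 0.30 (0.22 to 0.37) and 0.11 (0.05 to 0.17) and medians of 0.34 and 0.01. Ly6d gave most of these sums, with 2168 of the 3132 neonatal and 3701 of the 4722 adult UMIs of the members. Cd24a, the CD24 antigen that is abundant on immature B cells, was higher in both libraries, with 300 against 213 UMIs (0.49, 0.23 to 0.75) and 500 against 401 (0.32, 0.13 to 0.51). Ly6d, an early B lineage antigen, was also higher in both (0.22, 0.13 to 0.31, and 0.14, 0.07 to 0.21). Spib, a transcription factor of B cell receptor signaling, was higher in the neonatal pairs alone by its interval (247 against 148 UMIs, 0.73, 0.43 to 1.04; adult -0.13, -0.42 to 0.17). Vpreb3, which is expressed in immature B cells, was higher in neonatal members (342 against 268 UMIs, 0.34, 0.11 to 0.58) and lower in adult members (302 against 391, -0.37, -0.59 to -0.15). Rag1, Rag2, Dntt and Igll1, which mark precursors, had 0 UMIs in the members and partners of both libraries.

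Beyond the lists, genes were named when they had at least 100 CPM in a class of each library, were not used by the rule and had both intervals on the same side of 0. Of 1153 genes at that level, 34 (2.95%) had both intervals above 0 and 57 (4.94%) both below 0. At 1.5-fold in both libraries, 5 of 4041 genes were higher (0.124%) and 11 lower (0.272%). The 10 genes of each direction whose smaller ratio was farthest from 0 are described here.

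Plac8, a small cysteine-rich protein of lymphoid and myeloid cells, had the most UMIs among the 10 higher genes. It had 906 UMIs in 102 of 111 neonatal members and 632 in 96 partners (0.51, 0.36 to 0.66), and 1239 UMIs in 172 of 235 adult members against 731 in 150 partners (0.76, 0.63 to 0.89). Its level in pairs without any B1 gene was also higher (0.22, 0.00 to 0.43, and 0.72, 0.41 to 1.04), though in the neonatal pairs by less than in all pairs. Ndufb3, a subunit of respiratory complex I, was at 0.67 and 0.59, Cycs, cytochrome c, at 0.72 and 0.35, and Slc25a4, the mitochondrial ADP/ATP carrier, at 0.59 and 0.37. Minos1, which shapes the mitochondrial inner membrane, was at 0.58 and 0.32. Txn1, thioredoxin, was at 0.56 and 0.44, Dnajc7, a cochaperone, at 0.43 and 0.58, and Capg, an actin-capping protein, at 0.35 and 0.43. Cd24a, described above, was also in this group. Hmgb2, a chromatin protein abundant in dividing cells, was at 0.39 and 0.43, but a single cell gave 85 of its 266 neonatal UMIs and another 160 of its 892 adult UMIs. Its direction was not kept: Hmgb2 was lower under 5 of 16 neonatal alternatives (lowest -0.17) and 2 of 17 adult ones (lowest -0.13).

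**Figure D4:**
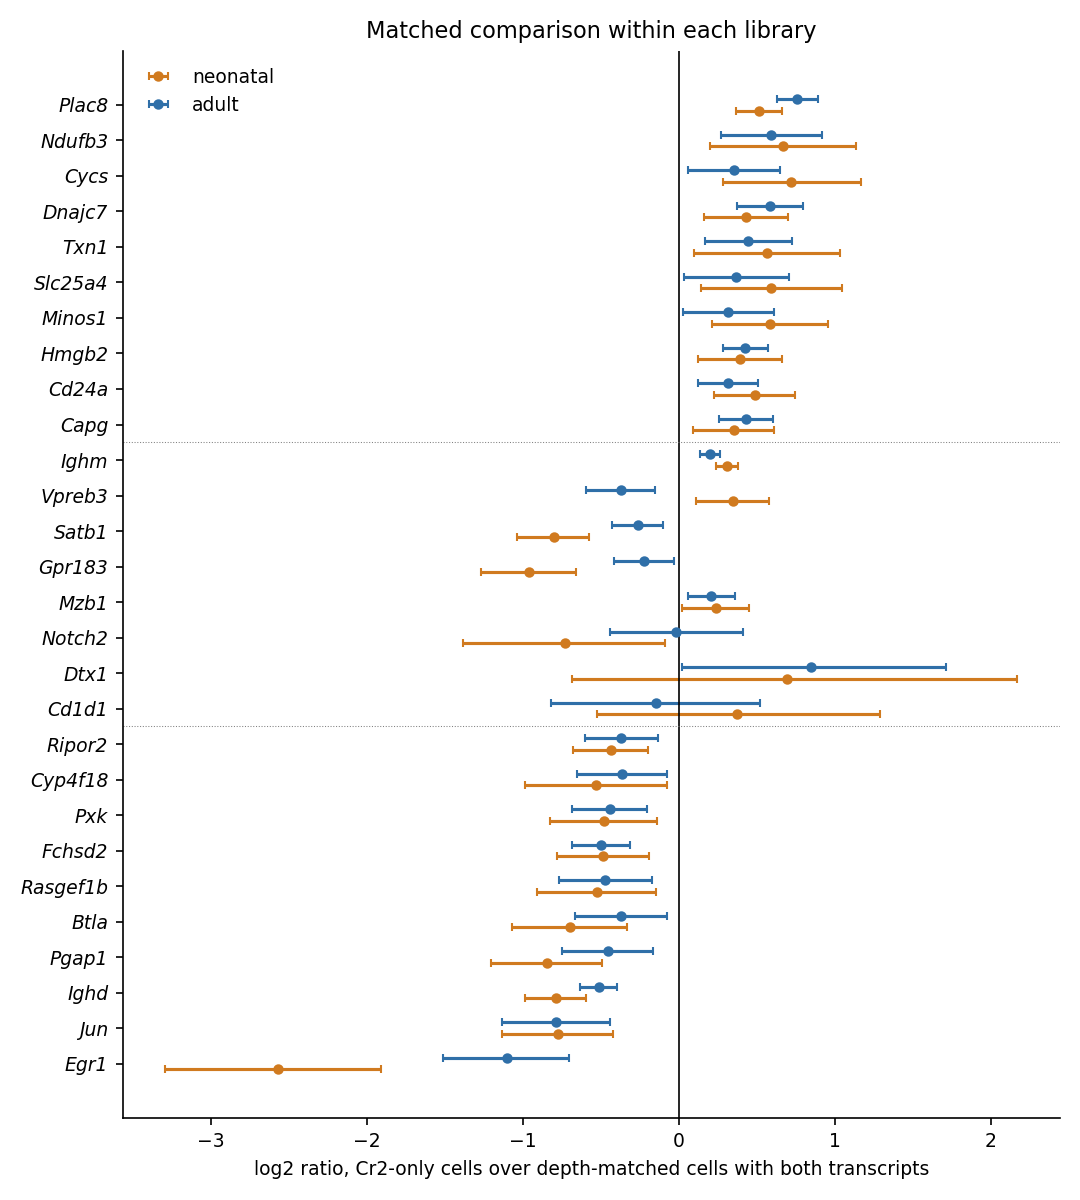
Log2 ratios of CPM in Cr2+Fcer2a- cells over depth-matched cells with both transcripts, for 111 neonatal and 235 adult pairs, with exact conditional binomial 95% intervals. The upper group holds the 10 genes leading among those higher in both libraries, the middle group genes of the marginal zone, follicular and transitional lists with Ighm, and the lower group the 10 genes leading among those lower in both, of which Egr1 rested on few cells.

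Among the lower genes, Ighd is described above. Pgap1, which trims GPI anchors, had 105 against 188 UMIs (-0.85, -1.21 to -0.50) and 171 against 234 (-0.45, -0.75 to -0.16). Btla, an inhibitory receptor of lymphocytes, had 101 against 163 UMIs (-0.70, -1.07 to -0.33) and 171 against 221 (-0.37, -0.67 to -0.08). Fchsd2, a membrane remodeling protein, was at -0.49 and -0.50, and Pxk, a phosphoinositide-binding protein, at -0.48 and -0.44. These 4 were each detected in more partners than members of both libraries. Rasgef1b, an exchange factor for small GTPases, was at -0.52 and -0.47, Ripor2, an inhibitor of RhoA, at -0.43 and -0.37, and Cyp4f18, which inactivates leukotriene B4, at -0.53 and -0.36.

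The early response genes Egr1 and Jun were also in this group, but a few cells carried much of their sums. Egr1 had 22 UMIs in 16 neonatal members against 130 in 13 partners (-2.57, -3.29 to -1.91) and 77 UMIs in 25 adult members against 165 in 16 partners (-1.10, -1.51 to -0.70). In each library 3 partners held most of the partners' UMIs (66.9% and 68.5%), and more members than partners had the transcript. Among pairs without any B1 gene, Egr1 had 13 against 10 and 35 against 12 UMIs, so its direction was not kept. Jun was at -0.78 and -0.79, and 1 neonatal partner held 82 of the partners' 184 UMIs, while 45 members and 41 partners had the transcript. Without any B1 gene, Jun had 61 against 60 neonatal UMIs (0.02, -0.52 to 0.56) and 50 against 81 adult UMIs (-0.70, -1.24 to -0.17), so the neonatal direction was not kept. Egr3, another gene of this family, had 58 UMIs in 31 neonatal members against 177 in 44 partners (-1.62, -2.07 to -1.18) and 69 in 37 adult members against 126 in 44 partners (-0.87, -1.31 to -0.43), where 3 partners held 40.5% of the partners' UMIs. Without any B1 gene, Egr3 had 36 against 44 neonatal UMIs (-0.30, -0.97 to 0.37) and 28 against 18 adult UMIs (0.64, -0.27 to 1.58), so both intervals held 0 and the adult sign turned.

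Of the 12 genes of the activation list, 9 neonatal and 10 adult genes had at least 50 UMIs, and 8 and 6 were lower in members, beside 48.7% and 56.4% of all genes, with medians of -0.52 and -0.14. Cd83, a marker of activated B cells, was lower in both (346 against 406 UMIs, -0.24, -0.45 to -0.03, and 642 against 803, -0.32, -0.48 to -0.17), as was Nr4a1, which follows antigen receptor signaling (-0.60, -0.81 to -0.40, and -0.24, -0.39 to -0.08). In pairs without any B1 gene, Nr4a1 was at -0.24 (-0.52 to 0.04) and -0.21 (-0.45 to 0.03), intervals that hold 0. Cd69 and Cd86 were lower in the neonatal pairs (-0.52, -0.76 to -0.28, and -0.49, -0.89 to -0.09) and at 0.00 (-0.17 to 0.18) and 0.10 (-0.12 to 0.32) in the adult pairs. Of the 10 immediate-early and heat shock genes, 8 had at least 50 UMIs in each library and 7 and 6 were lower, beside 48.7% and 56.4% of all genes, with medians of -0.30 and -0.22. Atf3, a stress-induced factor, went the other way in the adult pairs (181 against 67 UMIs, 1.43, 1.02 to 1.86) and had 130 against 129 UMIs in the neonatal pairs.

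MHC class II genes, which present antigen to T cells, were lower in members for 10 of 10 genes in both libraries, beside 48.7% and 56.4% of all genes, by more in the neonatal (median -0.39, sum -0.21, -0.24 to -0.18) than in the adult pairs (median -0.08, sum -0.07, -0.09 to -0.05). The difference between the libraries was not tested. At a mitochondrial limit of 5%, which left 1 neonatal and 11 adult pairs, the sums turned to 0.15 (-0.22 to 0.53) and 0.12 (0.05 to 0.20). In the neonatal pairs H2-Aa had 1775 against 2419 UMIs (-0.45, -0.54 to -0.36), H2-DMb1 had 31 against 64 (-1.05, -1.72 to -0.41), and Ciita, the master regulator of these genes, had 45 against 78 (-0.80, -1.36 to -0.25). Adult Ciita was at -0.09 (-0.38 to 0.19) and H2-Aa at -0.09 (-0.14 to -0.04).

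Of 10 genes of B cell receptor signaling, 7 of 9 neonatal and 6 of 10 adult genes with at least 50 UMIs were higher, beside 51.3% and 43.6% of all genes (medians 0.06 and 0.05). Cd79b, which pairs with Cd79a in the receptor, was at 0.33 (0.23 to 0.44) and 0.10 (0.02 to 0.19), and Vav1, an exchange factor downstream of it, at 0.71 (0.08 to 1.35) and 0.52 (0.05 to 1.01). The CD21 coreceptor list holds the partners of CD21 and the regulators of complement. Cd81, which sits with CD21 on the membrane, was within counting error (-0.12, -0.48 to 0.23, and 0.12, -0.13 to 0.36). Cd55, which speeds the decay of complement convertases, was lower in the adult pairs (527 against 777 UMIs, -0.56, -0.72 to -0.40) and at -0.19 (-0.41 to 0.03) in the neonatal pairs. In this list 4 of 4 neonatal and 2 of 5 adult genes were lower, beside 48.7% and 56.4% of all genes, with medians of -0.11 and 0.07. The sums were at -0.13 (-0.27 to 0.02) and -0.24 (-0.34 to -0.13), so the adult sum, led by Cd55, and the adult median had opposite signs.

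CD23 is induced by interleukin-4 and shed from the membrane by ADAM10. Of 9 listed genes of these steps, 4 of 6 neonatal and 5 of 7 adult genes with at least 50 UMIs were lower, beside 48.7% and 56.4% of all genes, with medians of -0.15 and -0.21. Jak1 was lower in the neonatal pairs (186 against 295 UMIs, -0.67, -0.95 to -0.40) and Stat6, the factor activated by the interleukin-4 receptor, in the adult pairs (40 against 67, -0.74, -1.35 to -0.16). Il2rg, the shared cytokine receptor chain, was lower in both (-0.26, -0.51 to -0.00, and -0.21, -0.39 to -0.03). Adam10 had 38 against 57 UMIs (-0.59, -1.22 to 0.03) and 81 against 56 (0.53, 0.02 to 1.05). In the Notch list 3 of 6 neonatal and 4 of 8 adult genes were lower, near the shares over all genes (medians -0.19 and 0.08). The summed list was lower in the neonatal pairs (-0.27, -0.49 to -0.05) and at 0.01 (-0.17 to 0.19) in the adult pairs. Hes1, a target of the pathway, had 40 against 31 and 24 against 18 UMIs, within counting error.

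Interferon response genes were higher in adult members for 7 of 8 genes, beside 43.6% of all genes (Ifit3 319 against 56 UMIs, 2.51, 2.10 to 2.95), but the 319 UMIs came from 27 cells, and 5 cells held 36.6% of the list's UMIs in all members. Mki67, a gene of dividing cells, had 89 UMIs in 6 adult members, of which 3 held 93.3%. Of the adult cell cycle UMIs of all members, 5 cells held 82.4%. Without the cells rich in interferon or cell cycle genes, the adult sums of these lists were -0.24 (-0.53 to 0.05) and -0.14 (-0.56 to 0.29). That removal used the genes of the same lists, so lower sums follow from it. In the neonatal pairs 1 interferon gene had at least 50 UMIs, and the list sum was at 0.52 (0.10 to 0.95). Of 10 B1 genes outside the rule, 4 of 4 adult genes with at least 50 UMIs were higher in members, beside 43.6% of all genes, among them Ptpn22 (107 against 67 UMIs, 0.67, 0.22 to 1.14) and Anxa2 (60 against 38, 0.66, 0.05 to 1.28). In the neonatal pairs, 2 of 2 were higher, beside 51.3% of all genes, with a summed ratio of 0.11 (-0.28 to 0.51). Cd9, one of the genes of the rule, had 46 against 23 UMIs in the adult pairs and 19 against 3 in the neonatal pairs, and S100a6 had 855 against 432 and 113 against 50. A few neonatal cells carried most of these sums, since for each gene 3 members held 73.7% of the Cd9 and 70.8% of the S100a6 UMIs. The part of cells with B1 genes in the other results was not tested except in the pairs without B1 genes.

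Smaller lists added single genes. Bcl6, a regulator of germinal center cells, had 22 against 56 UMIs in the neonatal pairs (-1.35, -2.14 to -0.62) and 36 against 54 in the adult pairs (-0.59, -1.24 to 0.05). Zeb2, a transcription factor of age-associated and effector B cells, was higher in both (152 against 102 UMIs, 0.57, 0.20 to 0.94, and 130 against 84, 0.63, 0.22 to 1.04), while Itgax and Tbx21, which define age-associated B cells, had 0 neonatal UMIs and 0 and 3 adult UMIs in members. Itgb1, an integrin chain, had 92 against 42 UMIs in the adult pairs (1.13, 0.59 to 1.69) and 28 against 26 in the neonatal pairs. In the 44 adult pairs with 3 or more Cr2 UMIs, described below, Itgb1 had 34 UMIs in 9 members against 12 in 11 partners. Jchain, Prdm1 and Sdc1, which mark plasma cells, had 2, 1 and 8 UMIs in neonatal and 10, 8 and 9 in adult members. Ly86, a partner of the Toll-like receptor homolog CD180, was at 0.21 (0.06 to 0.36) in the adult and -0.11 (-0.35 to 0.13) in the neonatal pairs.

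Transcripts of other cell types were rare in the members. Of 8 macrophage genes, 6 neonatal and 5 adult genes were at 0 in all members, Lyz2 among them, and the list summed to 8.07 and 4.37 CPM. Of 8 T cell genes, 7 and 5 were at 0, and the list summed to 1.15 and 5.62 CPM. No member held 3 or more genes of either list. Of the genes of follicular dendritic cells, which also carry CD21, 4 of 6 were at 0 in the members of each library, and the most abundant was Fcgr2b, which B cells express too (67 neonatal UMIs against 52, 99 adult against 94). Of 6 endothelial genes, 3 and 5 were at 0, and Pecam1, found on B cells as well, had 129 against 142 and 157 against 188 UMIs. Lyz2 had 273 UMIs in 6 of all neonatal cells with both transcripts, but 0 UMIs in the partners used for the comparison.

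Members with more Cr2 transcripts were few, and most were adult. The 45 adult members with 3 or more Cr2 UMIs, a subset set apart after their number was seen, gave 44 pairs with cells of both transcripts that also held 3 or more Cr2 UMIs. Their Ighd was lower (207 against 327 UMIs, -0.66, -0.92 to -0.40) and their Ighm higher (1042 against 798, 0.39, 0.25 to 0.52). Fcrl5 had 25 UMIs in 13 members against 8 in 6 partners (1.64, with a lower bound of 0.45), and Cd9, a gene of the rule, 19 against 4. Vpreb3 (-1.07, -1.63 to -0.52), Cd55 (-0.96, -1.37 to -0.57), Ccr7 (-0.89, -1.25 to -0.54) and Cxcr5 (-0.63, -1.24 to -0.04) were lower. Cd1d1 had 13 UMIs in each class, Dtx1 11 against 8 and Notch2 28 against 21, so these 3 did not differ beyond counting error. S1pr3, with 3 against 0, had too few UMIs to compare. Mzb1, of the same list, was higher (220 against 165 UMIs, 0.42, 0.12 to 0.72). UMIs of 2 B1 genes were found in 24.4% of these members and in 21.8% of the 326 adult cells with both transcripts at the same Cr2 minimum. These 326 cells were not matched by depth, and their median was 11295 UMIs against 7951 in the members. Of the other B1 genes of the rule, S100a6 had 336 against 129 UMIs in the pairs, Zbtb32 4 against 1 and Bhlhe41 2 against 0. Nid1 had 2 against 5, and Ctla4 had 0 in each class.

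Against cells with Fcer2a only, paired by depth in the same way, 8.75% of 4135 neonatal and 8.02% of 5575 adult genes differed by at least 1.5-fold. Ighd was again lower in members (-0.69, -0.88 to -0.49, and -0.52, -0.64 to -0.40), and Plac8 (0.45, 0.31 to 0.59, and 0.50, 0.38 to 0.63) and Cd24a (0.60, 0.34 to 0.86, and 0.59, 0.39 to 0.80) were again higher. Of the mitochondrial genes named above, Ndufb3 was at 0.61 and 0.08, Cycs at 0.39 and 0.09, Slc25a4 at 0.19 and -0.09 and Minos1 at 0.10 and 0.09, and the neonatal interval of Ndufb3 alone excluded 0. The MHC class II sum was lower in neonatal members (-0.14, -0.17 to -0.11), but in the adult pairs it was at 0.016 (-0.003 to 0.035). The members are the same cells in all of these comparisons, so the values are not independent of each other.

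The members were also set beside cells with neither transcript, paired by depth in the same way, a comparison chosen after the data were seen. Against these, neonatal members were lower in 6 of 6 transitional genes with at least 50 UMIs (median -0.36, sum -0.29, -0.36 to -0.22) and higher in 8 of 12 follicular genes (sum 0.09, 0.03 to 0.14). Of all 4030 neonatal genes 49.7% were lower and 50.3% higher, and of 5437 adult genes 47.7% and 52.3%. Plac8 was lower in members than in these cells at both ages (-0.25, -0.38 to -0.12, and -0.13, -0.24 to -0.02), and Cd24a was lower in the neonatal (-0.24, -0.47 to -0.02) and higher in the adult members (0.22, 0.03 to 0.42). MHC class II sums were higher in members at both ages (0.14, 0.11 to 0.18, and 0.11, 0.09 to 0.13). By these lists, neonatal members thus lay between the cells with neither transcript and those with both. At 1.5-fold, 7.22% of neonatal and 7.45% of adult genes differed in this comparison. In the adult library 3 of 4 transitional genes were higher in members (sum 0.11, 0.05 to 0.17), and the follicular sum was at -0.03 (-0.08 to 0.01). By the MHC class II list, adult members thus lay between the cells with neither transcript and those with both. By the transitional and follicular lists they did not.

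Between the ages, 26.3% of 4949 genes differed by at least 1.5-fold between adult and neonatal members, 7.01% higher and 19.3% lower in the adult. The median of all log2 ratios, adult over neonatal, was -0.20 in members and -0.11 in cells with both transcripts (9.33% higher and 13% lower of 8768 genes), and single ratios are to be read against these medians. Each of the 10 highest and 10 lowest genes had the same direction in cells with both transcripts. The 2 comparisons use the same 2 libraries.

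Interferon-induced genes led the genes higher in adult members. Ifit3 had 319 against 2 UMIs (6.43, 4.57 to 9.48), Slfn5 241 against 5 (4.71, 3.46 to 6.34) and Isg15 200 against 6 (4.17, 3.03 to 5.64), and in cells with both transcripts their ratios were 4.52, 2.74 and 4.28. Ly6a, the Sca-1 antigen, which interferon also induces, had 1131 against 68 UMIs (3.17, 2.82 to 3.55), and 2.91 in cells with both transcripts. Unlike the others it was widely expressed, in 155 of the 235 paired adult members. H2-Q7, a nonclassical MHC class I gene, was at 2.88 and 2.63, and Traf1, an adaptor of tumor necrosis factor receptors, at 3.28 and 3.07. Fxyd5, a regulator of the sodium pump, was at 2.20 and 1.02, and Pxdc1 at 2.97 and 1.24. Stmn1, a gene of dividing cells, was at 1.88 and 0.94, and Hist1h2ap, a histone gene, at 2.41 and 2.23. For each gene, 3 of the paired adult members held much of the UMIs (73.8% and 51.8%). Stmn1 was detected in 28 and Hist1h2ap in 83 of the 235 paired adult members. The Hist1h2ap ratio was at 1.55 or more in all 15 alternatives, while Stmn1 was at -0.45 without interferon-rich and cycling cells.

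**Figure D5:**
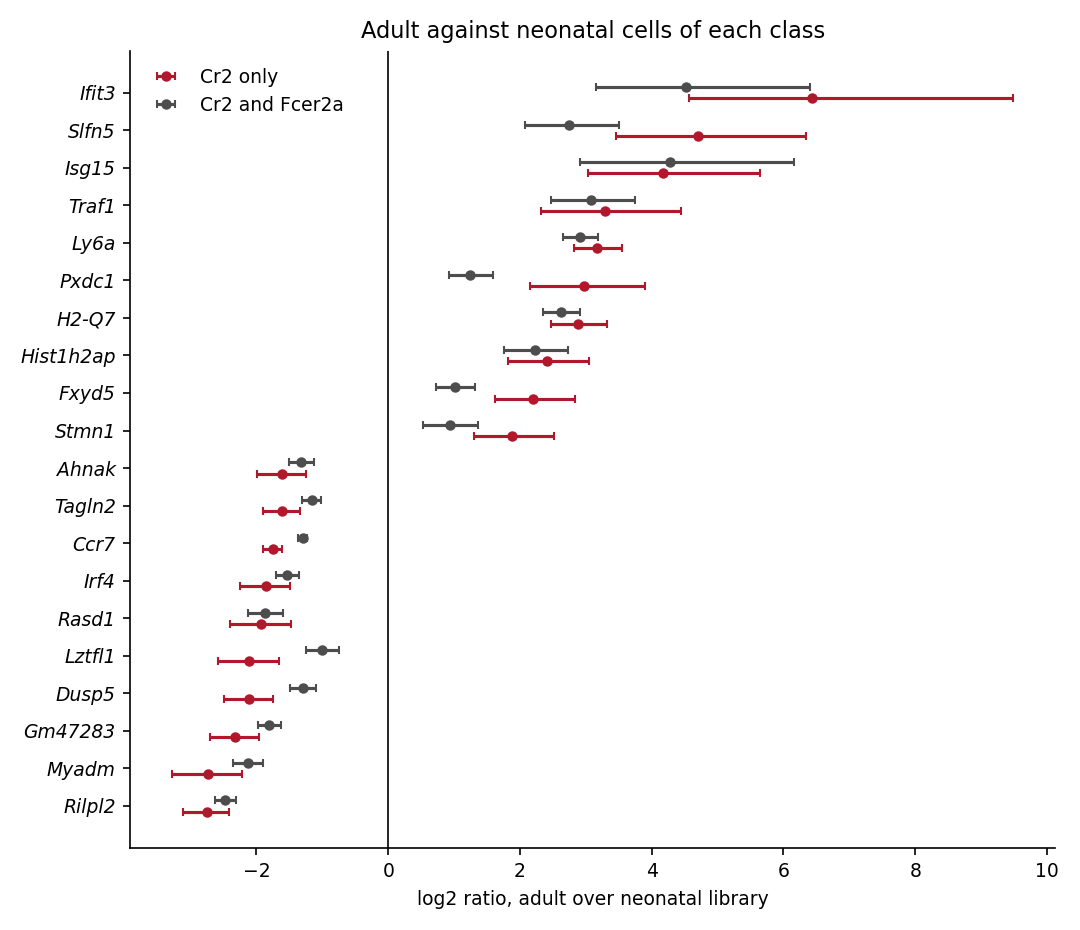
Log2 ratios, adult over neonatal library, of the 10 genes with the highest and the 10 with the lowest ratio in Cr2+Fcer2a- cells, beside the ratio in cells with both transcripts. Bars are exact conditional binomial 95% intervals, and each of the 20 genes had the same sign in both classes.

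Among the genes lower in adult members, Rilpl2, an adaptor of vesicle transport, had 87 against 318 UMIs (-2.76, -3.11 to -2.41), and -2.48 in cells with both transcripts. Myadm, a membrane protein of lipid rafts, was at -2.73 and -2.13, and Dusp5, a phosphatase of ERK, at -2.12 and -1.30. Lztfl1, which regulates ciliary transport, was at -2.11 (-2.58 to -1.65), with 31 of the 133 neonatal UMIs in a single member, and was lower by less in cells with both transcripts (interval -1.24 to -0.75). Irf4, a transcription factor of activated B cells and plasma cells, had 90 against 177 UMIs (-1.86, -2.24 to -1.49), and Ccr7 had 604 against 1100 (-1.75, -1.90 to -1.61). Rasd1, Tagln2, Ahnak and the gene model Gm47283 were the others, between -2.32 and -1.62. Ccr7 was thus among the largest age differences in a follicular list that otherwise went in both directions, with Ighd at 0.60 (0.43 to 0.78), Gpr183 at 0.70 (0.42 to 0.99), S1pr1 at -1.03 (-1.27 to -0.79) and Cxcr5 at -1.02 (-1.32 to -0.72).

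By any amount, 32.7% of all genes were higher and 67.3% lower in adult members. MHC class II genes were higher for 10 of 10 genes (median 0.80, sum 0.58, 0.55 to 0.60), beside 9 of 10 in cells with both transcripts (sum 0.44), where 40.2% of all genes were higher and 59.8% lower. B cell receptor signaling genes were lower for 9 of 10 (median -0.45, sum -0.55, -0.62 to -0.48), as in cells with both transcripts (9 of 10, sum -0.36). Transitional genes were lower for 4 of 4 with at least 50 UMIs, among them Vpreb3 (-1.09, -1.31 to -0.86) and Spib (-1.31, -1.59 to -1.03). The marginal zone list did not differ in sum (781 and 786 CPM, -0.01, -0.14 to 0.13), with Fcrl5 higher in the adult (45 against 7 UMIs, 1.80, 0.64 to 3.19) and Cd36 lower (19 against 41 UMIs, interval -2.86 to -1.18). Ighm was lower in adult members (2624 against 4165 CPM, -0.67, -0.73 to -0.60) and also in adult cells with both transcripts (2453 against 3399 CPM).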

How the data were processed

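B cells were sorted from hearts of 2 ages and sequenced as 1 10x Genomics 3' library per age. The authors aligned the reads to mm10 with Cell Ranger (version 3.0.2 per the file headers) and deposited UMI counts per gene and barcode, without a filter on cells. Antibody features held 3 and 2 UMIs and were not used. No doublets were removed beyond the sort gate.

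From the deposited counts, cells were chosen by at least 2000 gene UMIs and at most 10% mitochondrial UMIs and put into 4 classes by Cr2 and Fcer2a. Each Cr2+Fcer2a- cell was paired without replacement with the nearest cell by total UMIs of the other class, within 10%. UMIs were summed over cells and scaled to 1000000 UMIs (CPM), and log2 ratios carry exact conditional binomial 95% intervals. Genes needed 50 UMIs over both classes to be counted, and 1.5-fold was the fold used. Named genes had at least 100 CPM in a class of each library, the same sign and both intervals away from 0, and the 10 per direction with the largest smaller ratio were taken. Between the ages the 10 highest and 10 lowest ratios among genes of at least 100 CPM in either library's members were taken. With 1 library per age no p-value was computed. Gene positions are from GENCODE on GRCm38. Python 3.11.15, numpy 2.4.6, scipy 1.17.1, pandas 2.3.3 and matplotlib 3.10.9 were used. The procedure was tested on simulated Poisson counts drawn from 1 profile per library. Those counts lack the spread between cells, so the test does not cover genes whose UMIs lie in few cells.

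The members and gene lists were chosen with earlier results of these data known. Alternatives covered the limits on UMIs, mitochondrial share, B1 genes and Cr2, the pairing, thinning, scaling, sex, barcodes, deep cells and cells of other types. The adult comparison at 3 or more Cr2 UMIs, the removal of interferon-rich and cycling cells (3 or more of 8 genes of either list) and the attention to cells with neither transcript followed after the data were seen. Some genes of the lists were counted with their list but are not reported here by name.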

Additional observations from a re-analysis of the deposited data

Results flagged for a closer look

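For 3 genes the ratio of Cr2+Fcer2a- cells over depth-matched cells with both transcripts had opposite signs in the libraries, with both intervals away from 0. Igkc was at 0.0728 in the neonatal and -0.10 in the adult pairs. Vpreb3, of immature B cells, was at 0.34 and -0.37, and the gene model Gm47283 at 0.31 and -0.43. The difference between the libraries was not tested.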

How the results depend on the processing

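With 1 library per age, no value could be checked against the spread between mice, no library could be left out, and the few UMIs of Cd1d1, Dtx1 and S1pr3 left room for differences of about the size of their intervals. No paired analysis was possible because each age had 1 library, with no samples to pair (cells were paired by depth). Genes under 50 UMIs in an alternative have no value there. Of 61 ratios of named genes, those between the ages included, 49 kept their sign under every alternative in which they had a value. Egr1 in pairs without any B1 gene was under 50 UMIs and was not counted there. Ighd was lower under all 17 alternatives in each library (-0.88 to -0.55 and -1.37 to -0.32), Plac8 was higher (0.22 to 1.08 and 0.38 to 1.03), and Ighm ranged from 0.23 to 0.38 and from -0.04 to 0.70. The causes of the shifts below were not tested.

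The adult share of Cr2+Fcer2a- cells was 9.14% without a limit on B1 genes and 6.45% with 0 of them. With at least 2 Cr2 UMIs the neonatal and adult shares were 1.42% and 3.04%, and after thinning to 2000 UMIs before the classes were set 3.0% and 10.6%. The percent of genes at 1.5-fold in the neonatal and adult pairs was 23.7% and 22.2% at a mitochondrial limit of 5%, which left 1 neonatal and 11 adult pairs, 2.67% and 1.59% for genes of at least 200 UMIs, and 1.23% and 1.14% at 2-fold. It was 17.4% in neonatal pairs with at least 2 Cr2 UMIs, 12.1% in the adult without matching and 11.2% in adult pairs with at least 3 Cr2 UMIs. Between the ages it was 41.1% at the mitochondrial limit of 5%. The adult sum of Cd1d1, Dtx1 and S1pr3 was 0.87 (-0.03 to 1.81) after thinning, against 0.31.

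Among ratios whose interval excluded 0 as reported, signs turned as follows (log2, members over partners). With 0 B1 genes, neonatal Hmgb2 was at -0.13 and Jun at 0.0173, and adult Hmgb2 at -0.13, Ighm at -0.0399 and the cell cycle list at -0.0490. Between the ages that setting gave 0.0809 for the follicular and -0.35 for the cell cycle list. Without a limit on B1 genes adult Dtx1 was at -0.000786 and Egr1 at 0.58. At the mitochondrial limit of 5% the MHC class II list was at 0.15 in the neonatal and 0.12 in the adult pairs, adult Vpreb3 at 0.12 and Cd24a at -0.0404. Neonatal Hmgb2 was at -0.12 without the deepest 5% of cells, -0.10 without shared barcodes and -0.17 in pairs within 2%. Neonatal Jun was at 0.0651 without the deepest cells and at 0.0422 in cells with Y-linked UMIs, and cells with Xist gave -0.29 for Mzb1 and 0.27 for Ripor2. Thinning gave -0.0431 for neonatal Minos1 and 0.25 for Rasgef1b. Without interferon-rich and cycling cells Hmgb2 was at -0.0874 and -0.12, the adult interferon list at -0.24 and the cell cycle list at -0.14, and between the ages the cell cycle list was at -0.66 and Stmn1 at -0.45. Adult pairs with at least 3 Cr2 UMIs gave -0.12 for Dnajc7 and 0.0766 for Btla. Scaling by the median of ratios put the follicular list between the ages at 0.00606, against -0.19. Of ratios whose interval held 0 as reported, the neonatal marginal zone sum kept its sign in 14 of 17 alternatives (lowest -0.25), adult Cd1d1 in 10 of 12 (highest 0.24), neonatal Cd1d1 in 2 of 3 (lowest -0.0679), adult Notch2 in 8 of 14, the neonatal cell cycle list in 13 of 16 and the marginal zone sum between the ages in 6 of 16.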
